A study of Rattus norvegicus with 90 samples.

Results

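Rat renal proximal tubular epithelial cells were exposed for 24 h to 0.5 mM thioacetamide-S-oxide, the high dose, or to vehicle, and the 5 libraries of each group were compared. These 10 libraries were chosen by their labels for cell type, dose and duration, from 90 libraries in 18 conditions of the series. The series also holds hepatocytes and cardiomyocytes, a low dose for each cell type, and a duration of 9 h. The doses called low and high differ between the cell types. The high dose of the hepatocytes was 0.125 mM, the low dose of the renal cells, and the hepatocyte low dose was below it. The low dose of the cardiomyocytes was 0.5 mM, and their high dose was above it. The renal cells were Sprague-Dawley cells, bought cryopreserved, which had 18 h of further culture before the exposure started. Both groups received the same maintenance medium (EpiCM), which alone served as the vehicle, and no allele or other agent was added to either. The model is thus limited to purchased tubular cells kept in culture. The sources used here do not say whether the 5 libraries of a group came from separate animals or lots, so the p-values measure the spread between these libraries, which may be technical.

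Thioacetamide is a classical liver toxicant that must be oxidised before it does harm. Its first oxidation product is thioacetamide-S-oxide, and further oxidation gives a reactive S,S-dioxide that binds to proteins and lipids. Proximal tubular epithelial cells recover most of the filtered water, glucose, amino acids and salts from the primary urine and take up organic compounds from the blood. Both properties expose them to chemicals, and the proximal tubule is a common site of toxic injury in the kidney.

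Poly-A-enriched RNA was sequenced, and each deposited table gives estimated counts and TPM (the level of a transcript relative to its library, corrected for length) for 40071 Ensembl transcripts and 25095 genomic intervals. No table at hand paired the transcripts with genes, and 0 of them were matched to a gene symbol. Transcripts are therefore named by their identifiers, and the label "renal tube epithelial cells" could not be checked against marker genes of the proximal tubule or of other cells. The total estimated counts were 11415878 to 30103887 in the vehicle libraries (median 27450553) and 25095387 to 39153378 in the high-dose libraries (median 28061642). The shallowest library, vehicle MS-137, held fewer counts than any high-dose library. Between 92.2% and 94.5% of the counts of each library fell on transcripts.

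The libraries of both groups fell into 2 sets that the labels do not mention. After the group means were removed from the log2 CPM (counts scaled to the library total, with 0.5 added before logs), 1 principal component held 46.1% of the remaining variance and the next 12.3%. Vehicle libraries MS-136, MS-138 and MS-139 scored 22.6, 22.1 and 24.7 on it, and high-dose libraries MS-148 and MS-150 scored 27.3 and 30.2. Vehicle libraries MS-137 and MS-140 scored -34.8 and -34.5, and high-dose libraries MS-147 and MS-149 scored -43.1 and -20.3. High-dose library MS-146 lay between, at 5.78. The share of counts on genomic intervals moved with these scores. It was 7.14% to 7.78% in the 5 libraries with the high scores, 6.42% in MS-146 and 5.48% to 6.07% in the 4 libraries with the low scores. Of the 20 most abundant intervals, the one with the largest ratio between the sets, at 1:11970745-11973641 (Rnor_6.0, 2897 bases), took 2150.0 to 2523 CPM of all counts in the first 5 libraries, 1125.0 in MS-146 and 180.3 to 831 in the last 4. It was chosen after these values were seen. Each set held libraries of both groups, so the set and the dose can be separated, and the comparison was repeated within each set. What the sets stand for was not tested.

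**Figure D1:**
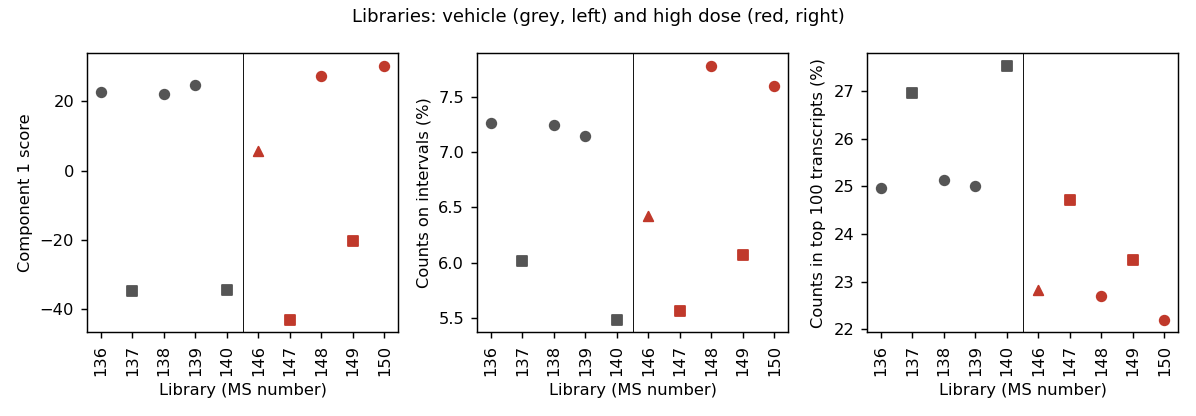
The 10 libraries, vehicle in grey on the left and high dose in red on the right of the line, by their MS number on the x axis. The panels show the score on the first within-group component, the percentage of counts on genomic intervals and the percentage of transcript counts in the 100 most abundant transcripts. Circles are the 5 libraries with high scores (22.1 to 30.2), squares the 4 with low scores (-43.1 to -20.3) and the triangle is MS-146, so both groups are divided in the first 2 panels, while in the third all high-dose libraries lie below all vehicle libraries.

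The question was which transcripts the high dose changed after a day. Calls were made with edgeR's quasi-likelihood test, at a p-value of 0.05 or less after Benjamini-Hochberg adjustment and a natural-log fold change of 0.41 or more in size, a 1.507-fold change. Of 17798 transcripts tested, 4793 were called, which is 26.9% of those tested. Without vehicle library MS-137, 4899 were called. Higher calls with all libraries numbered 2143 (12.0%) and lower calls 2650 (14.9%). Larger changes were not divided in the same way. At 2-fold or more, 943 transcripts were called higher and 1415 lower, and at 4-fold the numbers were 266 and 295. At 8-fold or more, 106 were higher and 62 lower, and at 16-fold or more, 45 were higher and 10 lower. Falls were thus more numerous at the threshold used, at 2-fold and at 4-fold, and rises among the changes of 8-fold or more. With no fold-change threshold, 4757 were higher and 4720 lower (50.2% higher), and the median log2 fold change over all tested transcripts was 0.02. All of these values are relative to the counts of a library, so that fewer cells of a type and less RNA per cell cannot be told apart.

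The response did not rest on 1 of the library sets. Within the first set (vehicle MS-136, MS-138 and MS-139 against high-dose MS-148 and MS-150), 4823 transcripts were called, and within the second (vehicle MS-137 and MS-140 against MS-147 and MS-149), 3591. These fits share no library. Among the 17554 transcripts tested in both, 4633 (26.4%) were called in the first set and 3542 (20.2%) in the second. Called in both with the same direction were 3013, which is 65.03% of the calls of the first set and 85.1% of those of the second. Another 3 were called in both with opposite directions. Of the 4793 transcripts called with all 10 libraries, 4766 were tested in both sets, and 4764 of these had the same sign in both. Those 10 libraries include the 9 of the sets, so that the last count is a description of where the calls came from.

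**Figure D2:**
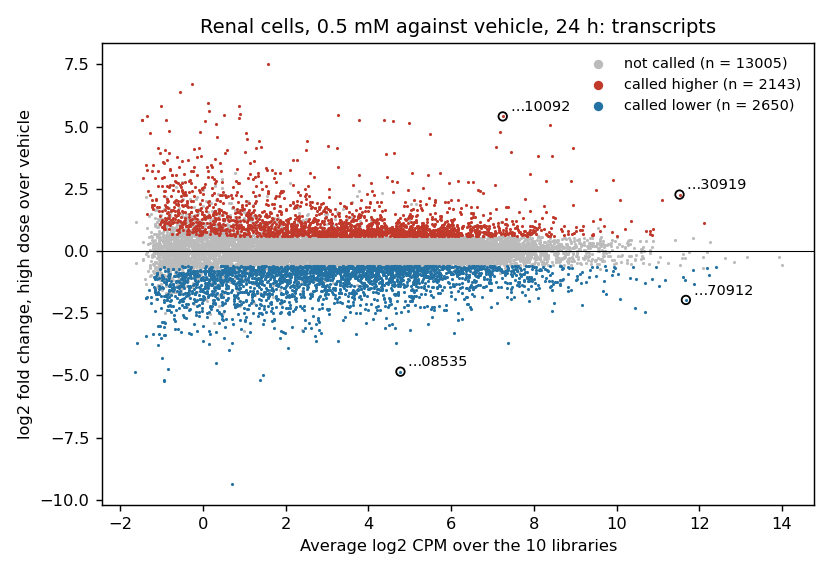
Each point is 1 of 17798 transcripts, with the average log2 CPM over the 10 libraries on the x axis and the log2 fold change of high dose over vehicle at 24 h on the y axis. Red marks the 2143 transcripts called higher, blue the 2650 called lower and grey those not called. Circles mark the 4 named transcripts by the last digits of their identifiers.

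Transcripts of all abundances were among those called. Of the 1786 transcripts with an average log2 CPM of 0 or less, 32.5% were called, and the share was 34.1% between 0 and 2, 30.1% between 2 and 4, 21.5% between 4 and 6, 20.3% between 6 and 8, and 26.7% among the 591 above 8. Lower calls were the more frequent in each of these bands. The widest gap was between 0 and 2, with 640 lower and 447 higher among 3187 transcripts. The median size of the log2 fold change was 0.66 in the lowest band, where the median standard error was 0.37, and 0.32 above 8, where it was 0.06. By length, from the 3564 shortest transcripts (42 to 1234 bases) to the 3558 longest (3788 to 23724 bases), the share called in 5 groups was 22.3%, 25.9%, 29.4%, 27.2% and 29.8%. The median standard error fell over the same groups, from 0.17 in the shortest to 0.10 in the longest. The longest also had the largest share of lower calls, 18.0% against 12.9% in the shortest. Higher calls were most frequent in the middle group (1851 to 2573 bases), at 14.2%. The median log2 fold change lay between -0.02 and 0.04 in all 5 length groups, so that no length group moved as a whole by more than this. Weighted by counts, the mean transcript length was 3075 to 3137 bases in the vehicle libraries and 3037 to 3071 in the high-dose libraries, with no overlap. Weighted by TPM, which corrects for length, it was 1491 to 1540 and 1501 to 1527 bases, and the groups overlapped.

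The exposed and vehicle libraries divided their transcript counts differently. Summed over the transcripts tested, the 2143 called higher held 6.47% to 6.57% of the scaled counts in the vehicle libraries and 13.9% to 14.2% in the high-dose libraries. The 2650 called lower went from 19.4% to 19.8% in vehicle to 9.34% to 10.1%. These sums describe the calls and are not a test of them, since the transcripts were chosen for these differences. The transcripts not called held most of the counts in both groups, 73.7% to 74.1% in vehicle and 75.9% to 76.5% at the high dose. Over all tested transcripts, 15.6 percentage points of the mean composition changed places, and called transcripts held 48.5% of the gain and 62.7% of the loss. The losses were in fewer transcripts than the gains. Of the total loss, 107 transcripts held 50%, and of the total gain, 304 did. The 10 largest losses came to 18.1% of the loss and the 10 largest gains to 12.3% of the gain. Between pairs of libraries of different groups, 15.6% to 19.4% of the counts would have to be reassigned to make them alike (25 pairs, median 16.3%). The corresponding share was 1.80% to 8.72% within vehicle (10 pairs, median 7.43%) and 2.99% to 11.6% within the high dose (10 pairs, median 6.30%). Every between-group pair was thus farther apart than every within-group pair, pairs across the 2 library sets included.

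The exposed cells spread their transcript counts more evenly. The 100 most abundant transcripts of each library held 25.0%, 27.0%, 25.1%, 25.0% and 27.5% of its transcript counts in the 5 vehicle libraries (MS-136 to MS-140). In the high-dose libraries (MS-146 to MS-150) they held 22.8%, 24.7%, 22.7%, 23.5% and 22.2%, all below the lowest vehicle value. The means were 25.9% ± 1.23 and 23.2% ± 0.971 (SD, n = 5 in each group), and the difference had an adjusted p = 0.0317 in a two-sided exact permutation test, whose smallest unadjusted p with 5 against 5 libraries is 0.00794. The 10 most abundant held 9.05% ± 0.857 and 7.53% ± 0.568 (SD, n = 5, adjusted p = 0.0357 in the same exact test), and the 1000 most abundant 56.6% ± 0.901 and 54.7% ± 0.766 (SD, n = 5, adjusted p = 0.0317, exact). For both of these the groups overlapped in MS-147, which at 8.46% and 55.9% stood above the lowest vehicle values of 8.38% and 55.8%. These shares also moved with the library sets, and within each set the groups did not overlap. The sets were chosen after the data were seen, leave out MS-146 and hold few libraries, so this is a description and not a test. For the 10 most abundant, vehicle held 8.38% to 8.47% and the high dose 6.99% to 7.31% in the first set, and 9.78% to 10.2% and 7.63% to 8.46% in the second. For the 1000 most abundant, the first set had 55.8% to 56.0% and 53.9% to 54.2%, and the second 57.3% to 57.8% and 55.0% to 55.9%. The permutation tests did not use the sets. With any 1 of MS-137, MS-138, MS-140, MS-146, MS-148 and MS-150 left out, and for the 10 and the 1000 most abundant also MS-149, the calls of these 3 measures were lost (adjusted p = 0.0635 or 0.0714, exact), with 5 against 4 libraries and a smallest unadjusted p of 0.0159. The differences kept their sign. Adjustment was over 6 measures, and neither total counts (adjusted p = 0.314, exact) nor the share of counts on transcripts (adjusted p = 0.952, exact) passed the test. The latter share also moved with the sets. It was 92.7% to 92.9% in vehicle and 92.2% to 92.4% at the high dose in the first set, without overlap, and 93.99% to 94.52% and 93.93% to 94.44% in the second, with overlap.

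More transcripts were detected after the high dose. With at least 1 estimated count as the criterion, 20458 to 22567 transcripts were detected in the vehicle libraries and 22561 to 23686 in the high-dose libraries. The means were 21960 ± 852 and 23056 ± 558 (SD, n = 5), with an adjusted p = 0.0317 in the exact permutation test. Depth moved with this count, as vehicle library MS-137 had both the fewest counts and the fewest transcripts, and without it the difference was 721 transcripts (adjusted p = 0.0635, exact). The same adjusted p was found without MS-138, MS-140, MS-146, MS-148 or MS-150, with differences of 939 to 1193 transcripts. Thinned to the smallest library, with rounded counts, the vehicle libraries held 20612 to 21154 transcripts and the high-dose libraries 21316 to 21672, with no overlap. With at least 10 counts as the criterion, the ranges of 15811 to 17775 and 17469 to 18545 overlapped. Few transcripts were present in 1 group alone. Under 1 count in every vehicle library and at least 10 counts in every high-dose library were found for 3 transcripts, with 10 to 40.1 counts in the high-dose libraries, and the reverse for 0. These counts depend on single libraries, with 7 in the high dose alone without MS-136 or without MS-138 and 6 without MS-140, and in vehicle alone 2 without MS-150 and 1 without MS-136, MS-137, MS-138, MS-140 or MS-146. With 5 counts in place of 10, there were 11 and 1.

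The transcripts named here are those with the largest rise and fall in log2 fold change and the largest rise and fall in mean CPM. They were taken among called transcripts whose mean log2 CPM was 3 or more and whose groups did not overlap. Being chosen for their size in this contrast, their changes at 24 h are extremes and do not stand for the rest.

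ENSRNOT00000010092, a transcript of 3666 bases, rose the most in fold. It stood at 7.73, 6.60, 6.28, 7.50 and 6.69 CPM in the vehicle libraries and at 313.6, 238, 307, 270.1 and 353 CPM in the high-dose libraries. Every high-dose library was far above every vehicle library. The lowest of them were MS-147 and MS-149, which are the high-dose members of the second library set. The log2 fold change was 5.41 (standard error, SE, 0.12, edgeR adjusted p = 2.64e-10), and it was 5.51 within the first library set and 5.25 within the second.

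ENSRNOT00000008535, of 3333 bases, fell the most in fold. The vehicle libraries held 60.2, 45.3, 58.0, 56.6 and 44.6 CPM and the high-dose libraries 2.19, 1.54, 1.87, 1.97 and 1.603 CPM. The vehicle libraries of the second set, MS-137 and MS-140, had the lower vehicle levels, and all 5 high-dose libraries still held the transcript at a low level. The log2 fold change was -4.85 (SE 0.13, edgeR adjusted p = 7.80e-10), -5.07 within the first set and -4.67 within the second.

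ENSRNOT00000030919, a short transcript of 830 bases, gained the most counts. It went from 975, 987, 1011, 1030.3 and 1058 CPM to 4908, 4475, 5228, 4739 and 4967 CPM. The spread within each group was small beside the difference of the means of 1012 ± 33.4 and 4864 ± 279 CPM (SD, n = 5). The log2 fold change was 2.26 (SE 0.05, edgeR adjusted p = 1.68e-10).

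ENSRNOT00000070912, of 3617 bases, lost the most counts, from 5066, 5270.2, 4941, 4997 and 5772 CPM in the vehicle libraries to 1357, 1414, 1233, 1420.3 and 1229 CPM. The means were 5209 ± 339 and 1331 ± 94.2 CPM (SD, n = 5). The log2 fold change was -1.97 (SE 0.06, edgeR adjusted p = 2.00e-09). ENSRNOT00000030919 and this transcript had estimated counts that were not whole numbers in all 10 libraries, so that part of their reads was shared with other targets and divided by estimation.

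**Figure D3:**
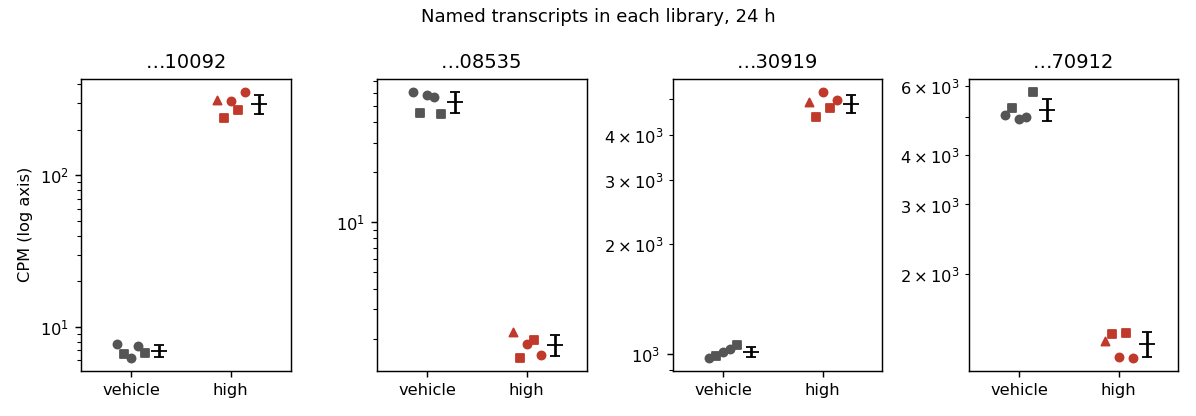
CPM of the 4 named transcripts in each library at 24 h on log axes, vehicle in grey and high dose in red, with the mean and SD (n = 5) beside the points. Circles, squares and triangles mark the library sets as in the plot of library scores. In each panel the groups do not overlap, with levels of 238 to 353 against 6.28 to 7.73 CPM for ENSRNOT00000010092.

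The response at 24 h was next set against that at 9 h, which came from other libraries (5 vehicle and 5 high-dose). In a fit of these 20 libraries, the test of the difference between the 2 responses called 2781 of 18752 transcripts (14.8%), with 1224 (6.53%) more positive and 1557 (8.30%) more negative at 24 h. The same fit called 5170 transcripts (27.6%) at 24 h, 2300 higher (12.3%) and 2870 lower (15.3%). At 9 h it called 3428 (18.3%), 1505 higher (8.03%) and 1923 lower (10.3%). Called at both times in the same direction were 2110 transcripts, 40.8% of the calls at 24 h and 61.6% of those at 9 h, with 917 higher and 1193 lower. Another 109 were called at both times in opposite directions, of which 63 were higher at 9 h and lower at 24 h. Of the transcripts called at 24 h, 1905 (36.8%) had a response that differed from that at 9 h. Which of the times had the larger change is not given for these, since they were chosen for their calls at 24 h. A further 484 transcripts differed between the times and were called at 9 h and not at 24 h. The median size of the log2 fold change over all tested transcripts was 0.29 at 9 h and 0.39 at 24 h. Across transcripts, which are not independent replicates, the Pearson r of the fold changes was 0.49.

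**Figure D4:**
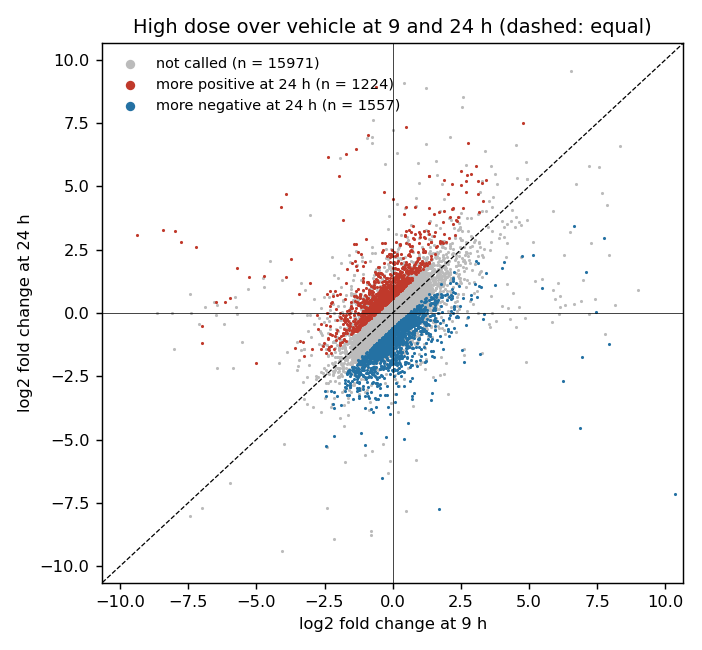
Each point is 1 of 18752 transcripts, with the log2 fold change of high dose over vehicle at 9 h on the x axis and at 24 h on the y axis. The dashed line marks equal responses. Red marks the 1224 transcripts with a more positive response at 24 h and blue the 1557 with a more negative one.

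The 4 named transcripts differed in how far they had moved at 9 h. ENSRNOT00000010092 had a log2 fold change of 1.35 at 9 h (SE 0.09, edgeR adjusted p = 4.83e-10), and ENSRNOT00000030919 one of 0.64 (SE 0.04, edgeR adjusted p = 1.94e-11). ENSRNOT00000008535 had already changed by -2.14 at 9 h (SE 0.13, edgeR adjusted p = 1.02e-10). ENSRNOT00000070912 changed by -0.31 (SE 0.04, edgeR adjusted p = 1.06e-05), which is under the fold-change threshold. All 4 thus had the sign at 9 h that they had at 24 h. In TPM, the 9 h vehicle and high-dose means were 6.27 ± 0.390 and 16.0 ± 1.77 for ENSRNOT00000010092 and 11.4 ± 0.524 and 2.58 ± 0.657 for ENSRNOT00000008535 (SD, n = 5). The vehicle cultures also differed with time in these units, since at 24 h they held 2.59 ± 0.316 TPM of the first and 21.9 ± 3.87 TPM of the second.

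A direct test of the high against the low dose (0.125 mM) at 24 h asked how much of the response lies between the doses. It called 3532 of 17941 transcripts (19.7%), of which 1504 (8.38%) were higher and 2028 (11.3%) lower at the high dose. At 2-fold or more there were 757 and 1149, at 4-fold 221 and 225, and at 8-fold 82 and 40. The low-dose library MS-145 stood apart, and without it 4234 transcripts were called (1937 higher and 2297 lower). The TPM levels at the 3 doses stand side by side here, and the low dose was not tested against vehicle. ENSRNOT00000010092 was at 2.59 ± 0.316 TPM in vehicle, 1.11 in MS-145, 3.25 ± 0.582 in the other 4 low-dose libraries and 115.4 ± 19.8 at the high dose (SD, n = 5, 4 and 5). ENSRNOT00000008535 was at 21.9 ± 3.87 TPM in vehicle, 4.59 in MS-145, 24.7 ± 4.19 in the other 4 and 0.788 ± 0.127 at the high dose. ENSRNOT00000030919 was at 1975 ± 75.9, 1040.1, 2816 ± 264 and 9957 ± 813 TPM in the same order. ENSRNOT00000070912 was at 1962 ± 71.7, 794, 1740.1 ± 60.0 and 523 ± 28.6 TPM. MS-145 was below the vehicle mean for all 4, and the other low-dose libraries were on average above it for the first 3 and below it for the last. The log2 differences between the doses were 5.14, -4.86, 1.79 and -1.81 in this order. Without MS-145 they were 5.07, -5.04, 1.74 and -1.82, and all 4 were called either way.

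Cardiomyocytes were exposed to the same 0.5 mM for 24 h, which is the low dose of that cell type. The test of the difference between the responses of the 2 cell types called 3276 of 19129 transcripts (17.1%), with 1406 (7.35%) more positive and 1870 (9.78%) more negative in the renal cells. Without cardiomyocyte library MS-172, which had the lowest scaling factor, 3897 were called. The division by direction varied with the fit. By DESeq2, 1417 were more positive and 2475 more negative. Without renal library MS-148 the numbers were 1044 and 1992, and without MS-172 1768 and 2129. The share more positive was 42.9% with all libraries, and 34.4% to 45.4% with 1 renal library or MS-172 left out. The median size of the log2 fold change in the fit of all 20 libraries was 0.39 in renal cells and 0.24 in cardiomyocytes. Of the 4340 transcripts called in renal cells in this fit, 2609 (60.1%) had a response that differed from that of the cardiomyocytes by the test of the difference. Since these were chosen for their renal calls, the direction of the difference among them is not given. In cardiomyocytes the fit called 100 transcripts, with 3822 at an unadjusted p under 0.05. ENSRNOT00000010092 changed by -0.72 in cardiomyocytes (SE 0.21, edgeR adjusted p = 0.0967), a difference of 6.13 between the cell types (SE 0.28, edgeR adjusted p = 2.02e-11). ENSRNOT00000008535 changed by -0.64 there (SE 0.20, edgeR adjusted p = 0.122), a difference of -4.21 (SE 0.30, edgeR adjusted p = 5.49e-09). For ENSRNOT00000030919 the cardiomyocyte value was 0.52 (SE 0.13, edgeR adjusted p = 0.0556) and for ENSRNOT00000070912 it was -0.07 (SE 0.08, edgeR adjusted p = 0.625), and the differences of 1.75 and -1.90 were both called.

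The levels of these transcripts in other cells give a scale for the renal change. ENSRNOT00000010092 had means of 6.99 to 9.87 TPM over the 6 hepatocyte conditions and 0.191 to 0.984 TPM over the 6 cardiomyocyte conditions, so that the 115.4 TPM of the exposed renal cells was above both. ENSRNOT00000008535 had 11.7 to 100.5 TPM in hepatocytes and 0.0390 to 3.37 TPM in cardiomyocytes over the same conditions. In cardiomyocytes at 24 h its means were 3.37 ± 0.716 TPM in vehicle, 1.81 ± 0.855 at 0.5 mM and 0.119 ± 0.118 at the higher dose of that cell type (SD, n = 5), against 21.9 ± 3.87 and 0.788 ± 0.127 TPM in vehicle and exposed renal cells. Lower mean levels in exposed cells were thus measured in renal cells and cardiomyocytes at 24 h. The test between these cell types was made at 0.5 mM alone. At 9 h the cardiomyocyte means were 0.170 TPM in vehicle, 0.325 at 0.5 mM and 0.0390 at the higher dose. In hepatocytes the means were higher on exposure. At 9 h vehicle, low and high dose had 28.5 ± 4.42, 50.9 ± 4.996 and 54.03 ± 6.11 TPM (SD, n = 5). At 24 h they had 11.7 ± 6.81 (highest library 16.6), 100.5 ± 13.2 and 67.8 ± 12.9 TPM. ENSRNOT00000030919 had 8146 to 14049 TPM in hepatocytes. At 9 h their means were 10878 ± 335 TPM in vehicle, 8898 ± 239 at the low and 8146 ± 307 at the high dose (SD, n = 5). At 24 h they were 10327 ± 5488 (lowest library 674), 14049 ± 918 and 11486 ± 861 TPM. In cardiomyocytes at 24 h it had means of 3983 ± 439 TPM in vehicle and 4665 ± 1980 TPM at 0.5 mM (SD, n = 5). At 9 h these were 5037 ± 211 and 5077 ± 1622 TPM. The lowest 0.5 mM libraries held 1897 TPM at 24 h and 2260 TPM at 9 h. At the higher dose the cardiomyocyte means were 10360.1 TPM at 24 h and 11156 TPM at 9 h. The renal means were 1975 ± 75.9 TPM in vehicle and 9957 ± 813 TPM at the high dose (SD, n = 5). Higher levels in exposed cells were thus measured in cardiomyocytes at their higher dose too, and lower levels in exposed hepatocytes at 9 h. ENSRNOT00000070912 had 13.4 to 52.9 TPM in hepatocytes and 475 to 805 TPM in cardiomyocytes. In hepatocytes the means did not fall on exposure. Vehicle, low dose and high dose had 24.3 ± 8.26, 24.5 ± 4.59 and 52.9 ± 6.69 TPM at 9 h (SD, n = 5). At 24 h they had 13.4 ± 3.88, 31.2 ± 5.92 and 29.3 ± 1.77 TPM. At 24 h the cardiomyocyte means were 778 ± 59.4 TPM in vehicle and 475 ± 50.7 TPM at the higher dose, and the renal means 1962 ± 71.7 and 523 ± 28.6 TPM (SD, n = 5). These levels are a description, as the doses differ between the cell types and 1 hepatocyte vehicle library at 24 h stands far apart. A low library also enters the cardiomyocyte means at 0.5 mM, where the lowest value of ENSRNOT00000008535 at 24 h was 0.365 TPM.

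Genomic intervals responded as well. They are 1003 to 20000 bases long, are named only by their position in the Rnor_6.0 build, and were scaled on their own counts, so that their CPM is relative to interval counts. Of 7439 tested, 1380 (18.6%) were called higher and 997 (13.4%) lower. At 4-fold or more, 190 were higher and 55 lower. The share called lay between 27.1% and 38.7% on each of the 21 chromosomes with at least 100 tested intervals, so that calls were spread over the genome. Scaled together with the transcripts, the median log2 fold change of the intervals moved from 0.06 to 0.17, and 1568 were called higher and 785 lower. The excess of rises was smaller by DESeq2, with 1249 higher and 1058 lower, and within the second library set, where 1486 were called, 761 higher and 725 lower.

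The interval at 8:100191733-100211732 (20000 bases) rose the most in fold. It had 15.8 to 24.2 CPM in the vehicle libraries (median 18.4) and 584 to 730.3 CPM in the high-dose libraries (median 620.1). The log2 fold change was 4.98 (SE 0.12, edgeR adjusted p = 2.09e-13). The interval at 16:31669945-31689944 (20000 bases) fell the furthest in fold. Its means were 161.5 ± 32.02 and 10.4 ± 2.9997 CPM (SD, n = 5), and its log2 fold change was -3.96 (SE 0.19, edgeR adjusted p = 2.85e-10). By CPM, the largest rise was at 1:84450664-84470329 (19666 bases). Its vehicle libraries held 2135 to 2534 CPM and its high-dose libraries 18216 to 24879 CPM, which is a log2 fold change of 3.24 (SE 0.12, edgeR adjusted p = 2.30e-11). In TPM this interval went from 10.2 ± 0.995 to 111.9 ± 12.8 in renal cells at 24 h (SD, n = 5), against 9.31 ± 0.238 and 19.8 ± 1.07 at 9 h (SD, n = 5). Its means were 88.5 to 111.5 TPM over the hepatocyte conditions and 1.75 to 2.97 TPM over those of cardiomyocytes, so that exposed renal cells reached the hepatocyte levels. The largest fall in CPM was at 15:51365735-51368605 (2871 bases), from 12966 ± 1037 to 7111 ± 550.1 CPM (SD, n = 5), with -0.87 as the log2 fold change (SE 0.10, edgeR adjusted p = 5.06e-06).

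Among tested intervals at most 10000 bases from the next, the longest run called in 1 direction was of 5 intervals at 10:84123891-84181617, all lower and each without overlap between the groups. Their log2 fold changes were -0.67 to -1.29, and their summed level went from 1807 to 778 CPM. What is annotated there was not looked up, since the annotation at hand is of another build.

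**Figure D5:**
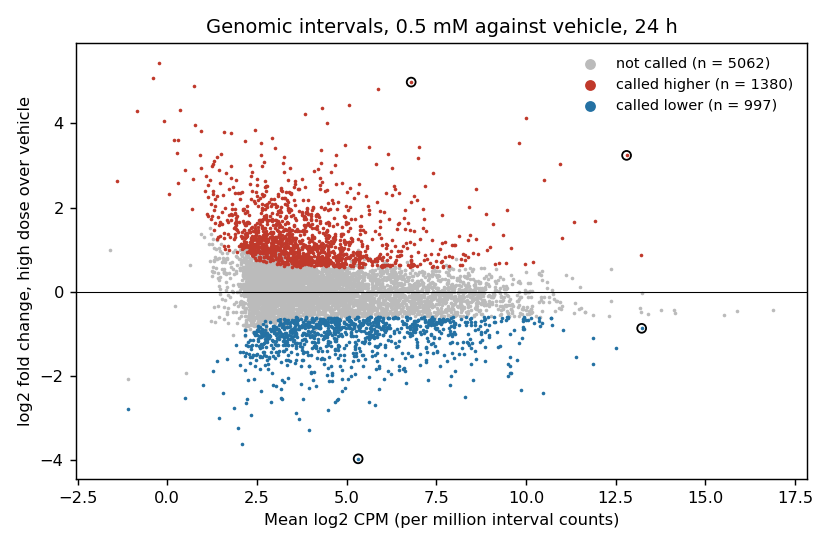
Each point is 1 of 7439 genomic intervals, with the mean log2 CPM, relative to interval counts, on the x axis and the log2 fold change of high dose over vehicle at 24 h on the y axis. Red marks the 1380 intervals called higher and blue the 997 called lower, and circles mark the 4 intervals described by their positions.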

How the data were processed

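RNA of 10 renal libraries (5 vehicle, 5 high dose, 24 h) was analysed, with 10 renal libraries at 9 h, 5 at the low dose and 10 of cardiomyocytes in tests for comparison. TPM levels of named targets were also read in all hepatocyte and cardiomyocyte libraries, and an alternative fit used all 30 renal libraries. The deposited tables of the 5 high-dose 24 h renal libraries follow another naming scheme than the MS numbers of their labels, and were assigned to samples by the deposit's own record. The authors deposited an estimated count and a TPM value for each target, made with kallisto 0.42.4, and the submitters' processing notes name the Rnor_6.0 build. Reads compatible with several targets were divided among them by estimation. The authors' own Sleuth fits were not used, and the sources used here do not describe the intervals. Estimated counts were rounded and tested with edgeR 4.0.16 in R 4.3.3, using TMM scaling, the filterByExpr filter and the quasi-likelihood test (glmQLFit, glmQLFTest), with Benjamini-Hochberg adjustment over all targets tested. The standard error was the size of the log2 fold change divided by the square root of F. The interaction fits used all 20 libraries of their 4 groups. Alternatives used DESeq2 1.42.0 and limma 3.58.1, and library measures were tested by exact permutation in SciPy 1.17.1. The functions were tested on simulated data. Groups and the comparison came from the labels. The members and lists were chosen with earlier results of these data known. The planned summing per gene, gene lists and markers could not be used, since no table paired transcripts with genes. Named transcripts are those with the largest rise and fall in log2 fold change and in CPM among called transcripts whose mean log2 CPM was 3 or more and whose groups did not overlap, and the same rule, added after the data were seen, gave the named intervals. At 11415878 to 39153378 counts per library, counting error is small for all but rare targets, and TPM carries no depth.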

Additional observations from a re-analysis of the deposited data

Results flagged for a closer look

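Vehicle library MS-137 lay apart from the other 4 vehicle libraries, with 11415878 estimated counts and 20458 transcripts detected, the lowest values of that group. Of 28 sets of 5 values tested for a value apart, 2 had one, where chance gives about 1.4. Without MS-137, 4899 transcripts were called between high dose and vehicle.

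The response of all 4 named transcripts differed between the times and between the cell types, by tests of the difference itself. As they were chosen for their size at 24 h in renal cells, larger values there are favoured by the choice. For ENSRNOT00000010092 the log2 fold change at 24 h minus that at 9 h was 4.05, and that in renal cells minus that in cardiomyocytes was 6.13. For ENSRNOT00000008535 these differences were -2.72 and -4.21. For ENSRNOT00000030919 they were 1.62 and 1.75. For ENSRNOT00000070912 they were -1.67 and -1.90.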

How the results depend on the processing

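The count of 4793 called transcripts stayed within 1.5 times under DESeq2 (4871), upper-quartile normalization (4786), no filter (5290), limma (4435), all 30 renal libraries in one fit (4882), transcripts and intervals in one fit (4852), and each library left out in turn (4691 to 4899). It moved to 9477 with no fold-change threshold, 2358 at 2-fold and 2238 among the 7193 transcripts with whole-number counts, each by the construction of the alternative. The 2 library sets and the covariate for the share of counts on intervals (5045) were chosen after seeing the data. Called intervals moved to 1486 within the second library set, where only 4 libraries enter, and ranged from 2315 to 2508 with each library left out. With 1 library left out, the count ranged from 2724 to 2860 for the time comparison (the 24 h libraries only), from 3039 to 4234 for the dose comparison (all libraries) and from 2934 to 3897 for the cell type comparison (the renal libraries and MS-172 only).

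Of the library measures, the differences of -1.52, -2.74 and -1.87 percentage points in the 10, 100 and 1000 most abundant were lost as calls in 7, 6 and 7 of the 10 fits with 1 library left out (-1.75 to -1.24, -3.12 to -2.34 and -2.16 to -1.57 percentage points). The difference in detected transcripts ranged over 721 to 1248 there, and was 663 at 10 counts (adjusted p = 0.298, exact). That of the share of counts on transcripts turned with 1 library left out, over -0.34 to 0.23 percentage points (0.10 without MS-137, 0.23 without MS-140, 0.22 without MS-148 and 0.17 without MS-150). Transcripts in high-dose libraries alone numbered 11 at 5 counts and 3 to 7 with a library left out, and those in vehicle libraries alone 1 and 0 to 2. The 4 named transcripts and 4 named intervals kept their direction and call in every alternative that gave a test. No paired analysis was possible because no replicate number occurs in more than one group. Depth limits the rare transcripts, and intervals and transcripts that share reads remain estimates.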
